A study of Oryza sativa with 8 samples.

Results

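The transcript levels of HOX24, HOX22 and HOX6 were followed in rice leaves before and after a drought treatment. These are the 3 rice genes whose symbol or synonym in the RefSeq table is HOX24, HOX22 or HOX6, and each had 1 probe set, out of 57194 probe sets and 17905 genes that a probe set represents alone. The 3 genes were chosen by their name and family and, in part, by drought values of these same arrays, so their change under drought is given as a description and without a test.

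The plants were japonica Zhonghua11, either wild type (WT) or carrying an OsGRAS23 overexpression transgene (OE), and all were 21 days old and grown in culture solution. Leaves were taken from untreated plants (normal), or from plants laid on filter paper until WT leaves rolled (drought). Each of the 4 groups had 2 Affymetrix arrays labelled as biological replicates, with 20 seedlings pooled per array and 6 µg of RNA per labelling. The normal leaves were sampled before the treatment, so drought, handling and elapsed time cannot be told apart. The promoter of the transgene and the number of independent lines are not given in the sources used here, and the name OsGRAS23 matched no gene in the tables used here, so the level of the transgene was not analysed here.

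HD-Zip proteins are plant transcription factors in which a DNA-binding homeodomain is followed by a leucine zipper, through which they pair on DNA. HOX24, HOX22 and HOX6 belong to class I of this family, to the branch that also holds ATHB7 and ATHB12 of Arabidopsis. In Arabidopsis, both of those genes are switched on by water deficit and by abscisic acid (ABA), the hormone that closes stomata in dry leaves, and their proteins act on genes of ABA signalling. In rice, HOX22 and HOX24 are known as genes that respond to dehydration, salt and ABA.

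Expression was measured as a log2 RMA value for each probe set, and array medians lay between 4.80 and 4.90. Replicates correlated across probe sets at 0.987 to 0.991, and arrays of different groups at 0.947 to 0.991. Of the leaf genes, RBCS (the small subunit of Rubisco), RCA (Rubisco activase) and CAB2R (a chlorophyll-binding protein) lay between 12.3 and 14.1 on every array, while RBCS1 lay between 3.22 and 3.66. Of 5 genes from a root list, the silicon transporters Lsi1 and Lsi2 lay between 9.20 and 11.89 and between 4.10 and 8.05, HAK1 between 7.32 and 9.34, NRT2.3 between 4.69 and 5.45 and PT6 between 2.77 and 3.30. The summed linear level of these 5 genes was 2098 to 4234 in WT normal, 1248 to 1293 in WT drought, 848 to 4353 in OE normal and 1377 to 1478 in OE drought leaves, so that it was lower after drought in WT and spread most widely between the OE normal arrays. The genes of this list did not move together: Lsi1 and Lsi2 had drought differences of -2.04 and -2.90 in WT, HAK1 rose by 1.03 (limma adjusted p = 0.0497) and PT6 had a difference of 0.29. The summed linear level of the 4 leaf genes was 44530 to 46933 in WT normal, 35236 to 37389 in WT drought, 41520 to 44643 in OE normal and 28912 to 39552 in OE drought leaves, and so was also lower after drought in both lines. The part of either list in the results below was not tested. In pooled leaf RNA, fewer cells of a type and less RNA per cell cannot be told apart.

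HOX24 had the largest rise under drought of all 57194 probe sets in WT, and also the largest in OE. Its log2 values were 4.78 and 4.44 on the WT normal arrays and 11.46 and 10.91 on the WT drought arrays. In OE they were 4.55 and 5.10 under normal conditions and 11.29 and 9.82 under drought. All 4 normal values lay close to the array medians, and the lowest drought value was far above the highest normal value in both lines. The WT mean was 4.61 ± 0.24 (SD, n = 2) before drought. It was 11.18 ± 0.39 (SD, n = 2) after drought, a log2 difference of 6.57 (limma standard error 0.43), or 94.9-fold. The OE mean was 4.82 ± 0.39 (SD, n = 2) before and 10.56 ± 1.04 (SD, n = 2) after drought. The difference was 5.74 (standard error 0.43), or 53.3-fold. The OE drought arrays were the least alike, and replicate 2 was the lowest of the 4 drought arrays. Without OE drought replicate 1 the OE difference was 5.0, and without replicate 2 it was 6.47. No detection calls were used, so the normal values of HOX24 are not shown to lie above background, and both folds are those of the RMA values and may understate the change in transcript.

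HOX22 was also higher under drought in both lines, from a level that was already well above the array medians before the treatment. Its log2 values were 6.82 and 7.32 on the WT normal arrays and 10.80 and 10.12 on the WT drought arrays. In OE they were 5.98 and 6.66 under normal conditions and 10.85 and 10.24 under drought. The normal and drought arrays did not overlap in either line. The mean difference was 3.39 (standard error 0.33), or 10.5-fold, in WT and 4.22 (standard error 0.33), or 18.7-fold, in OE. These were the 63rd largest rise among all probe sets in WT and the 16th largest in OE. As for HOX24, replicate 2 had the lower value of the drought pair in each line.

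HOX6 differed from the other two. The name of its probe set marks one that detects alternative transcripts of a single gene. Its log2 values were 7.02 and 7.33 on the WT normal arrays and 7.41 and 7.40 on the WT drought arrays. The drought arrays lay above the normal arrays by as little as 0.07, and the mean difference was 0.23 (standard error 0.19), or 1.18-fold. This was the 19396th largest among all probe sets. A rise of HOX6 under drought was therefore not clear in WT leaves, and it was not tested. The difference was close to its standard error, so a small rise cannot be told from no change. After quantile normalization of the arrays the WT difference was 0.52. In OE the values were 6.80 and 7.06 under normal conditions and 7.85 and 8.26 under drought. The OE difference was 1.12 (standard error 0.19), or 2.18-fold, and the 1064th largest. Within the OE drought pair HOX6 was higher in replicate 2, where HOX24 and HOX22 were lower.

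A call below needed a limma adjusted p under 0.05, over all probe sets, and at least a 2-fold change. Of all probe sets, 2.17% were called higher and 5.51% lower under drought in WT, and 1.6% higher and 0.836% lower in OE. These shares depended on single arrays. In WT more probe sets were called without normal replicate 1 and fewer without normal replicate 2, and in OE fewer without either normal array. WT normal replicate 2 correlated with the WT drought arrays at 0.948 and 0.947, and WT normal replicate 1 at 0.968 with each. The drought arrays lay wholly above the normal arrays for 36.7% of all probe sets in WT and 25.8% in OE. The drought arrays of HOX24, HOX22 and HOX6 did so in both lines, and since drought values chose these genes, nothing is read from that count.

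**Figure D1:**
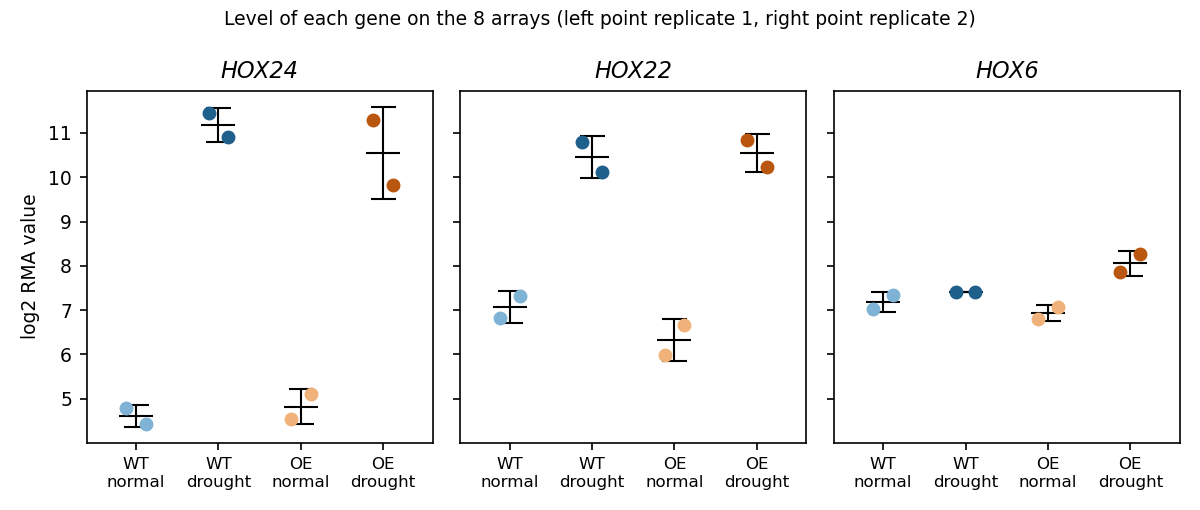
Log2 RMA value (vertical axis) of HOX24, HOX22 and HOX6 on each array, for WT and OsGRAS23 overexpression (OE) leaves under normal conditions and drought. Points are arrays, horizontal lines are group means and bars are ± 1 SD (n = 2). HOX24 lay between 4.44 and 5.10 on normal arrays and between 9.82 and 11.46 on drought arrays, while the WT values of HOX6 stayed between 7.02 and 7.41.

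The comparison of the lines asked whether OsGRAS23 overexpression changed the level of the 3 genes. None of them was called, under either condition. Over all probe sets 0.0192% were called between the lines under normal conditions and 0.0157% under drought. With 2 arrays against 2 an exact permutation test cannot give a two-sided p below 0.333, so the tests rest on the spread that limma shares across groups and probe sets.

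Under normal conditions, HOX22 was lower in OE than in WT by 0.75 on the log2 scale, with values of 5.98 and 6.66 against 6.82 and 7.32. The arrays of the lines did not overlap, as for 30.9% of all probe sets. The difference was -0.41 without OE normal replicate 1, -0.49 without WT normal replicate 2 and -1.09 without OE normal replicate 2. The log2 difference of OE minus WT was -0.75 with a 95% interval of -1.49 to -0.0078 (limma adjusted p = 1). For HOX24 the difference was 0.21 (95% interval -0.76 to 1.18, limma adjusted p = 1), and for HOX6 it was -0.24 (95% interval -0.68 to 0.20, limma adjusted p = 1). For both of these genes the arrays of the lines overlapped. The intervals include a rise of over 2-fold for HOX24 and a fall of over 2-fold for HOX22.

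Under drought, HOX6 was the gene whose interval lay furthest from 0. Both OE drought arrays, at 7.85 and 8.26, lay above both WT drought arrays, at 7.41 and 7.40, and the arrays of the lines did not overlap for 39.8% of all probe sets. The log2 difference of OE minus WT was 0.65 (95% interval 0.21 to 1.09), and it did not pass the adjustment over all probe sets (limma adjusted p = 0.694). HOX24 differed by -0.62 (95% interval -1.59 to 0.34, limma adjusted p = 0.728). HOX22 differed by 0.09 (95% interval -0.65 to 0.83, limma adjusted p = 0.950). The WT and OE drought arrays of both genes overlapped.

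The drought change itself was then compared between the lines, as the OE change minus the WT change. For HOX6 this was 0.89 on the log2 scale (95% interval 0.27 to 1.51, limma adjusted p = 0.729). For HOX22 it was 0.83 (95% interval -0.21 to 1.88, limma adjusted p = 0.731), and for HOX24 it was -0.83 (95% interval -2.20 to 0.53, limma adjusted p = 0.762). None of these passed the adjusted threshold. The value of HOX24 rested largely on the OE drought arrays, as it was -0.099 without OE drought replicate 2 and -1.57 without replicate 1. That of HOX22 ran from 0.49 without WT drought replicate 2 to 1.17 without WT drought replicate 1, and that of HOX6 from 0.69 to 1.09 over the arrays left out. No probe set of the array was called in this comparison by limma (0%), although 3839 had an unadjusted p under 0.05. The drought changes that chose the 3 genes were measured on these same arrays.

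**Figure D2:**
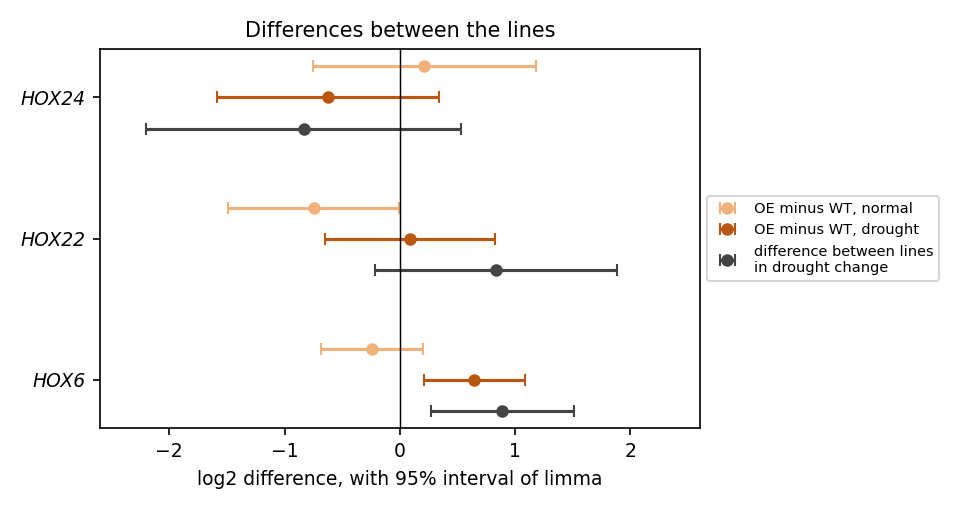
Log2 difference (horizontal axis) between OsGRAS23 overexpression (OE) and WT leaves for HOX24, HOX22 and HOX6. Points are OE minus WT under normal conditions, OE minus WT under drought and the OE drought change minus the WT drought change, and bars are the 95% intervals of limma. The intervals for HOX6 under drought (0.21 to 1.09) and for its difference in drought change (0.27 to 1.51) lay above 0, and neither passed the adjustment over all probe sets.

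The other HD-Zip genes showed how the rest of the family behaved in the same leaves. Of 37 further names of classes I to IV, 30 had a probe set given to that gene alone. Among them, HOX11, HOX17, HOX28, ROC7 and ROC8 lay below the array medians on every array, so a change in them may be understated or missed. In WT, 1 of the 30 was called higher and 4 lower under drought, which is 3.33% and 13.3% against 2.17% and 5.51% of all probe sets. In OE, 2 were called higher and 1 lower, or 6.67% and 3.33% against 1.6% and 0.836%. The median log2 difference of the 30 genes was -0.33 in WT and -0.12 in OE, and that of all probe sets was 0.08 and 0.02. Their differences ran from -1.997 to 1.96 in WT and from -1.77 to 1.45 in OE. The changes of HOX24 and HOX22 lay outside the range of the other 30 genes in both lines, while that of HOX6 lay inside it. Since drought values of these arrays helped to choose the 3 genes, nothing is read from their position.

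Of the other class I genes, HOX14 rose in both lines. Its log2 values were 3.74 and 4.10 in WT normal and 6.03 and 5.74 in WT drought leaves, and 4.82 and 4.83 in OE normal and 5.92 and 6.64 in OE drought leaves. The difference was 1.96 in WT (standard error 0.25, limma adjusted p = 0.00235) and 1.45 in OE (standard error 0.25, limma adjusted p = 0.0177). In WT the level before drought was below the array medians, and the OE normal arrays were higher than the WT normal ones. The OE call was lost without either OE normal array (adjusted p = 0.118 and 0.0768) or OE drought replicate 2 (0.0791).

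HOX12, a class I gene known for its part in panicle exsertion, was called in OE and not in WT. It went from 4.96 and 5.21 to 6.11 and 6.66 in OE, a difference of 1.30 (standard error 0.25, limma adjusted p = 0.0294). In WT it went from 4.66 and 5.31 to 5.82 and 5.74, with a difference of 0.79 (limma adjusted p = 0.0586). Its OE call was lost without either OE normal array (adjusted p = 0.202 and 0.0803), either WT drought array (0.0615 for each) or OE drought replicate 2 (0.175). Neither a line difference nor a difference in drought change was called for any of the 30 genes, while 1, 5 and 2 of them had an unadjusted limma p under 0.05 for the lines under normal conditions, under drought and for the drought change. Over all 57194 probe sets these numbers were 2344, 4037 and 3839.

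HOX21 and HOX4 had the lowest differences among class I genes. HOX21 fell from 6.95 and 7.47 to 5.69 and 5.63 in WT and from 7.81 and 7.20 to 5.71 and 5.75 in OE. Its difference was -1.55 in WT (limma adjusted p = 0.00477) and -1.77 in OE (limma adjusted p = 0.00690). The probe set of HOX21 is of a kind that can match several transcripts, and its OE call was lost without OE normal replicate 1 (adjusted p = 0.0539). HOX4 fell from 9.38 and 8.52 to 7.70 and 6.20 in WT, by a difference of -1.997 (standard error 0.50, limma adjusted p = 0.0281). In OE it had a difference of -1.23 (limma adjusted p = 0.257). The WT call of HOX4 was lost when either WT normal array was left out (adjusted p = 0.0930 and 0.0696) or WT drought replicate 2 (0.149), after quantile normalization (0.0504) and with a trended and robust prior (0.0520).

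In the other classes no gene was called higher. The 8 class II genes, whose relatives in Arabidopsis act in auxin responses and shade avoidance, had differences of -0.79 to 0.69 in WT and none was called in either line. Among the 8, HOX11, HOX17 and HOX28 lay below the array medians on every array, so the lack of a call need not mean no change. The 5 class III genes, which in Arabidopsis pattern the upper side of leaves and the vascular tissue, all had values below 0 in WT and in OE, from -0.80 to -0.23 and from -0.46 to -0.11, and none was called. Of the 8 class IV genes, which act in the epidermis of leaves, ROC1 and ROC2 fell in WT, by differences of -1.08 and -1.27 (limma adjusted p = 0.0133 and 0.00727), and neither was called in OE. When WT normal replicate 2 was left out, neither call held (adjusted p = 0.0853 and 0.0511). The call of ROC1 was also lost without WT drought replicate 2 (0.0877) and after quantile normalization, where its difference was -0.88, and that of ROC2 without WT drought replicate 1 (0.0522).

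**Figure D3:**
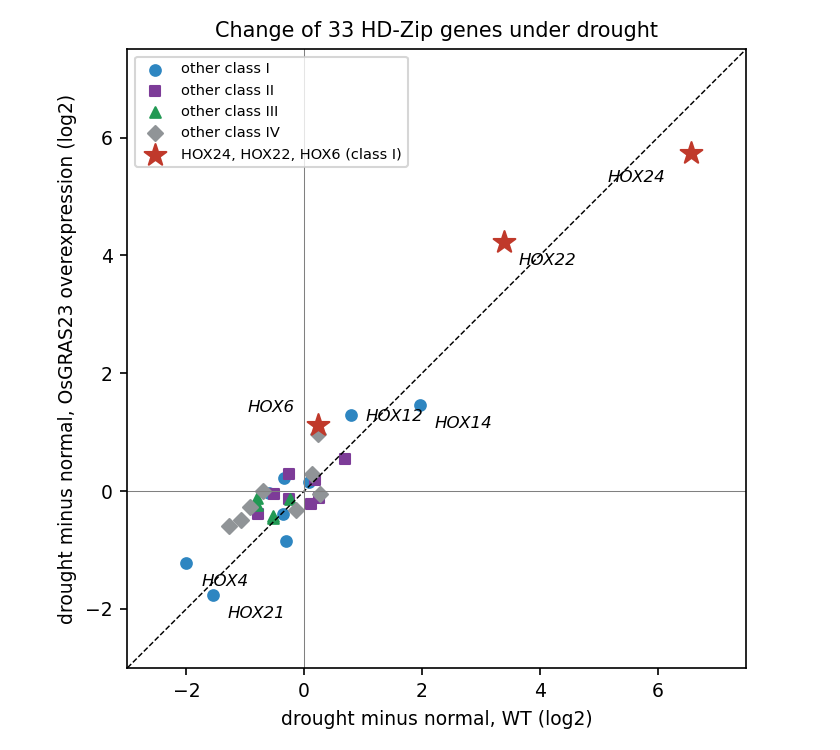
Drought minus normal on the log2 scale in WT (horizontal axis) and in OsGRAS23 overexpression leaves (vertical axis) for HOX24, HOX22 and HOX6 (stars) and 30 other HD-Zip genes by class. The dashed line marks equal change. HOX24 (6.57 and 5.74) and HOX22 (3.39 and 4.22) lay apart from the other genes, whose values ran from -1.997 to 1.96 in WT. HOX24, HOX22 and HOX6 were chosen in part by drought values of these arrays, so nothing is read from their position.

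Genes of ABA synthesis, breakdown and signalling were counted in the same fit, since class I HD-Zip genes of this branch respond to ABA. Of 49 names listed, 22 genes had a probe set, and no gene of ABA synthesis was among them. They were 10 kinases, 7 phosphatases, 2 genes of ABA breakdown, 2 bZIP factors and 1 receptor. In WT, 8 of the 22 (36.4%) were called higher and 2 (9.09%) lower. In OE 9 (40.9%) were called higher and 1 (4.55%) lower. The shares of all probe sets are those given above. The list was chosen with earlier results of these data known, so nothing is read from the difference in shares. The median log2 difference was 0.48 in WT and 0.63 in OE. The highest were PP2C68, PP2C09 and PP2C30, of the phosphatase clade that holds ABA signalling in check. Their differences were 4.24, 3.19 and 3.06 in WT and 3.79, 2.92 and 3.18 in OE. Of the 7 phosphatase genes, 4 were called higher and 3 were not called in each line, and their lowest difference in WT was -0.43. Of the 10 kinase genes, 3 were called higher and 1 lower in WT, and 4 higher and 0 lower in OE. The falls were those of ABA8OX1, which breaks ABA down, at -1.99 in WT and -2.03 in OE, and of the kinase gene SAPK5 at -1.01 in WT (limma adjusted p = 0.00729), which passed the 2-fold threshold narrowly and was not called after quantile normalization, without WT normal replicate 1 or without WT drought replicate 2.

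Finally, the genes with profiles most like those of HOX24, HOX22 and HOX6 were listed by Pearson's r over the 8 arrays, among 243 genes that had a symbol and a range of at least 2 on the log2 scale. The arrays hold 4 normal and 4 drought arrays, so r includes the difference between them, and it is given as a description. The genes were picked by likeness over these same arrays, so features they share with a member follow in part from that choice. For HOX24 these were PP2C09 (r = 0.999), ABF2 (0.993), PP2C30 (0.992), RSH3 (0.991) and HSF11 (0.990). ABF2 is another name of BZIP23, a factor that binds ABA-responsive elements, and HSF11, also named HSFA2A, is a heat stress factor. The name HSF11 is also a synonym of another gene in RefSeq, and its probe set can match several transcripts, as that of BAT1 below can. HSF11 came nearest to HOX24 in size, with differences of 6.45 in WT and 5.32 in OE, and the other 4 had differences of 2.29 to 3.19 in WT. All 5 were lower on OE drought replicate 2 than on OE drought replicate 1, as HOX24 was.

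For HOX22 the most similar were UGE-1 (r = 0.999), PP2C30 (0.993), HSF1 (0.987), RFS (0.987) and DJC27 (0.984). UGE-1 is named as a UDP-glucose epimerase and DJC27 as a DnaJ protein. UGE-1 had a smaller difference than HOX22, of 1.80 in WT and 2.42 in OE. Its normal values of 7.72 and 8.00 in WT and 7.23 and 7.52 in OE were lower in OE, as those of HOX22 were. PP2C30 was thus among the 5 most similar genes of both HOX24 and HOX22.

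For HOX6 the most similar were HOX12 (r = 0.945), CHITINASE (0.930), WOX6 (0.914), LAC24 (0.912) and BAT1 (0.908). All of them had a larger drought difference in OE than in WT, such as 1.45 against 0.54 for WOX6, a homeobox gene of the WOX family. The highest value of each was on OE drought replicate 2, which was also the highest array for HOX6. Both features follow in part from the choice of these genes by their likeness to HOX6. WOX6 lay below the array medians on every WT array and on both OE normal arrays, so its values there are not shown to lie above background. None of the 5 was on the lists of HOX24 or HOX22.

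**Figure D4:**
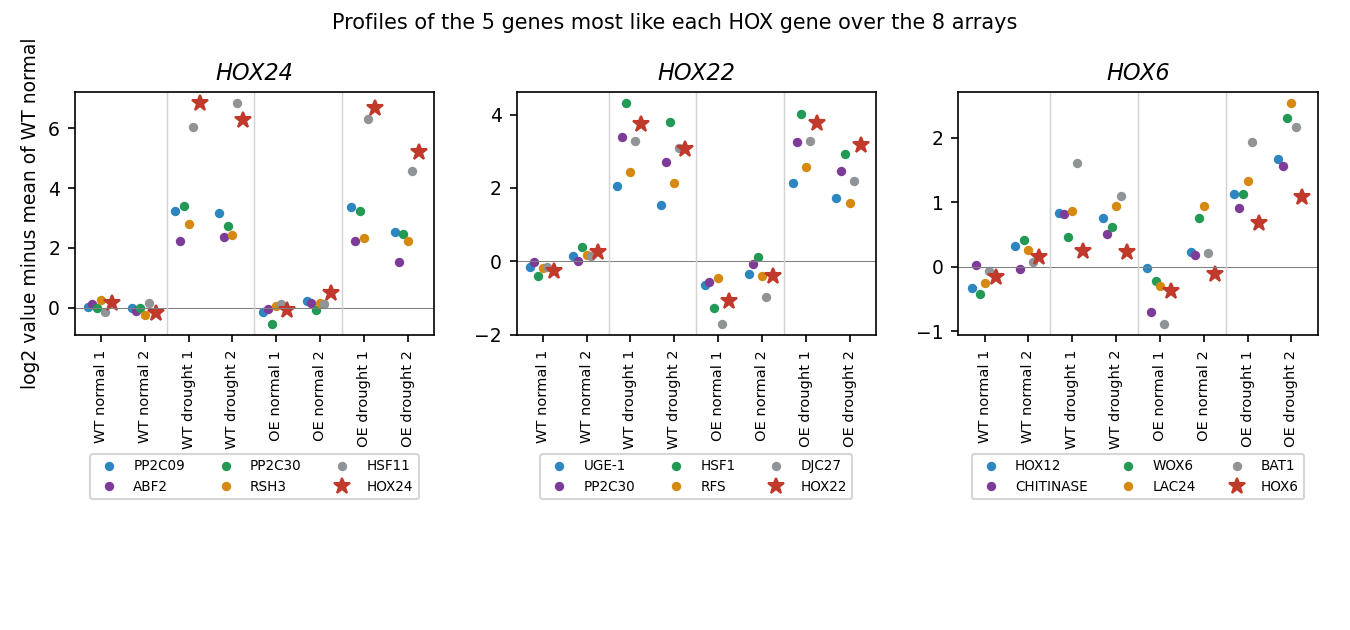
Log2 value minus the mean of the 2 WT normal arrays (vertical axis) on each of the 8 arrays for HOX24, HOX22 and HOX6 (stars) and the 5 genes most like each (points). HOX24 and HSF11 had the largest WT drought differences of the genes shown (6.57 and 6.45). The genes most like HOX6 were highest on OE drought replicate 2, as HOX6 was, which follows in part from their choice by likeness.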

How the data were processed

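The authors deposited 1 log2 expression value per probe set and array. The submitters' processing notes name RMA and Partek 6.5; the settings are not given in the sources used here. RMA corrects background and is meant to scale the arrays to each other, so a low probe set near background has its change understated. The deposited arrays did not share 1 distribution, as a further quantile normalization still changed the values. It gave 1656 probe sets called higher and 2370 lower under drought in WT, against 1239 and 3153 in the main fit. No detection calls were used, and the number of arrays limits the precision.

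Array controls (187) were left out. Probe sets were named through the platform table and RefSeq (ASM3414082v1), used for names and gene order only: 22436 had 1 gene, 95 several and 34663 none. A gene stood by its brightest probe set. limma 3.58.1 in R 4.3.3 was fitted to the 8 arrays in 4 groups, with 4 residual degrees of freedom and 4.85 from the prior. P-values were adjusted by Benjamini-Hochberg across the 57194 probe sets. The fit was also run on simulated data. Lists and plots were made in Python 3.11.15 (numpy 2.4.6, pandas 2.3.3, matplotlib 3.10.9).

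The members and lists were chosen with earlier results of these data known. Named were the 3 genes, HD-Zip genes called in either line or among the 3 largest WT changes, up to 3 rises and 2 falls of ABA genes, and the 5 genes most like each member. Alternatives were another set of arrays in the fit, quantile normalization, median centring, a filter at a mean log2 value of 5, another prior spread, each array left out, a block for the replicate number, other thresholds and other probe set rules. The labels do not say whether arrays with the same replicate number belong together, and the main fit did not pair them. Correlations of replicate differences between groups were -0.17 to 0.10, which cannot settle it. No sequence was used here.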

Additional observations from a re-analysis of the deposited data

How the results depend on the processing

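No line difference of HOX24, HOX22 or HOX6, and no difference in drought change, was called in any of the 16 alternatives run for each; the lowest adjusted p was 0.217 (limma), for the HOX6 difference in drought change. The drought differences of HOX24 ran from 6.29 to 6.84 in WT and from 5.0 to 6.47 in OE when single arrays were left out, and those of HOX22 from 3.05 to 3.73 in WT and from 3.89 to 4.56 in OE. With the replicate number as a block the drought difference of HOX24 in WT was 6.57 as before. After quantile normalization the HOX6 difference in WT was 0.52, and 2 other HD-Zip genes and 1 ABA gene were called lower in WT. The cause was not tested.

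Leaving out single arrays turned the sign of some small line differences. HOX24 under normal conditions ran from -0.065 to 0.49, HOX24 under drought from -1.36 to 0.11 and HOX22 under drought from -0.25 to 0.43. Among the other HD-Zip genes, the 4 lower in WT became 1 to 7, the 2 higher in OE 0 to 2 and the 1 lower in OE 0 to 1. The 2 lower ABA genes in WT became 1 to 2 and the 9 higher in OE 5 to 9. Without a fold threshold 8 HD-Zip genes were lower in WT and 2 ABA genes in OE. With the replicate block 2 HD-Zip genes were lower in OE, HOX4 being the second. With probe sets that can match several transcripts left out, none (0) was. A fit without an array leaves a lone array in 1 group, which is taken to vary like the others. The 3 genes had no other probe set to try.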

Other observations

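The nearest protein-coding genes on either side of HOX24, HOX22 and HOX6 in RefSeq order that had a probe set of their own were chosen for a look after values of the data were seen. Their 6 log2 drought differences ran from -2.22 to 0.43 in WT and from -0.79 to 0.11 in OE. The 4 beside HOX24 and HOX22 had values below 0 in both lines, with -0.92 in WT for FTSH7, beside HOX24. The lowest in WT was LOC9272389, beside HOX22, at -2.22 (limma adjusted p = 0.00235), and it had a difference of -0.74 in OE. The probe set of LOC9272389 is of a kind that can match several transcripts. Beside HOX6, LOC4347646 was also below 0 in both lines, with differences of -0.66 in WT and -0.45 in OE. On the other side of HOX6, LOC4347648 had differences of 0.43 in WT and 0.11 in OE, against 0.23 and 1.12 for HOX6. None of the 6 was called higher in either line by limma, where 2.17% of all probe sets were called higher in WT and 1.6% in OE, so nothing is read from that count.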
